A study of Drosophila melanogaster with 8 samples.

Results

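The proteasome is the large protease that degrades ubiquitin-tagged proteins in eukaryotic cells. In the deposited count table, 48 of 16845 genes had a current FlyBase symbol that begins with Prosalpha, Prosbeta, or Rpn or Rpt and a number. Of these, 32 were the constitutive subunits and 16 carried the suffix T or R, which marks extra copies of a subunit gene, several of them known for expression in the testis. The RNA came from the terminalia (genital and anal structures) of male yw;+;+ pupae, 1 pupa per library, staged in hours after puparium formation (hr APF). There were 4 libraries from 28 hr APF and 4 libraries from 24 hr APF, with no other treatment and the same genotype throughout. The libraries held between 24534188 and 35795240 counted reads. Levels are given in rpkm, the counted reads of a gene scaled by the length of its exons in kilobases and to 1000000 counted reads in the library. Each p-value measures the spread between single pupae of 1 genotype.

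The core of the proteasome, called 20S, is a barrel of stacked alpha and beta rings, and the alpha rings close the entrance. Of the beta subunits, Prosbeta1, Prosbeta2 and Prosbeta5 carry the cutting sites, with caspase-like, trypsin-like and chymotrypsin-like activity. The 19S regulatory particle sits on the barrel. Its base holds the ring of Rpt ATPases, which unfolds substrates and opens the entrance, with the large scaffold subunits Rpn1 and Rpn2 and the ubiquitin receptors Rpn10 and Rpn13, and its lid holds the other Rpn subunits, among them Rpn11, the enzyme that removes ubiquitin chains. The subunits are built into one complex in fixed proportion. In Drosophila, several subunits have a second gene that is used in the male germline, where proteasomes take part in the shaping of sperm.

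The tissue label was checked with genes known from the terminalia. Abd-B lay between 74.4 and 89.2 rpkm, cad between 83.6 and 123 rpkm and dsx between 47.5 and 73.4 rpkm in the 8 libraries. Lists of genes of other tissues were read in the same way. Summed over its list, fat body lay between 27.1 and 66.0 CPM (counts per 1000000 counted reads) at 28 hr APF and between 34.8 and 133 CPM at 24 hr APF, with replicate 3 at 24 hr APF highest. In that library 2443 counts were on Lsp2, against 134 to 622 in the others at 24 hr APF. Lsp2 shares 84.6% of its exon bases with a gene on the opposite strand. The hemocyte list lay between 27.1 and 35.5 CPM at 28 hr APF and between 22.4 and 53.7 CPM at 24 hr APF, and the muscle list between 295 and 367 CPM at 28 hr APF and between 294 and 367 CPM at 24 hr APF. At an adjusted p of 0.05 (edgeR, described with the comparison), 1 of the 4 tested fat body genes was called lower (Lsp1gamma, log2 fold change -1.72), and 3 of the 5 muscle genes were called higher and 2 lower. Higher were Mlc2, Mlc1 and up (log2 fold change 1.08, 1.41 and 1.55), and lower were Mef2 and Mhc (-0.31 and -1.78). The sum of the muscle list thus held changes in both directions. Over all tested genes, 17.3% were called lower and 15.6% higher. None of the 4 hemocyte genes was called by edgeR or DESeq2, with 1 higher at an unadjusted p under 0.05 in each. The testis list is described with the paralogs.

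The constitutive subunits were abundant at both time points. Their mean levels lay between 76.4 rpkm (Rpn13) and 269.5 rpkm (Prosalpha3) at 28 hr APF and between 83.1 and 316 rpkm, for the same genes, at 24 hr APF, with a median of 134 rpkm at 28 hr APF and 155 rpkm at 24 hr APF. Each was read with 2543 to 13585 counts per library. Among the 16431 genes with an exon length, they ranked between 259 and 1148 at 28 hr APF. The levels of the 32 genes thus spanned 3.53-fold at 28 hr APF, with a coefficient of variation of 32.1% at 28 hr APF and 33.1% at 24 hr APF. By part of the complex, the 6 ATPase genes spanned 1.35-fold at 28 hr APF, the 8 lid genes 1.64-fold, the 7 beta genes 2.15-fold and the 7 alpha genes 2.84-fold.

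In the alpha ring, Prosalpha3 was highest, with 276, 266, 270.4 and 265 rpkm in replicates 1 to 4 at 28 hr APF, against 303, 318, 325 and 318 rpkm at 24 hr APF. Prosalpha2 followed, with a mean of 243 rpkm at 28 hr APF and 289 rpkm at 24 hr APF. Prosalpha1 was lowest of the ring and of the whole core, but its reads cannot be separated with certainty from those of a second gene, as described with the paralogs. In the beta ring, Prosbeta3, a subunit without a cutting site, was highest, with 247, 232, 237 and 239 rpkm in replicates 1 to 4 at 28 hr APF, against 271, 269.6, 277 and 273 rpkm at 24 hr APF. Prosbeta6, also without a cutting site, was lowest, with 114, 109.8, 103 and 118 rpkm in replicates 1 to 4 at 28 hr APF, against 137, 132, 140.2 and 133 rpkm at 24 hr APF. The 3 genes of the cutting sites differed in level, with Prosbeta5 at 226 ± 9.07 rpkm at 28 hr APF and 261 ± 10.4 rpkm at 24 hr APF (SD, n = 4 each), Prosbeta1 at 199 ± 9.10 rpkm at 28 hr APF and 227 ± 7.96 rpkm at 24 hr APF (SD, n = 4 each) and Prosbeta2 at 138 ± 5.07 rpkm at 28 hr APF and 155 ± 8.74 rpkm at 24 hr APF (SD, n = 4 each). The ranges of Prosbeta5, Prosbeta1 and Prosbeta2 did not overlap with each other at either time point.

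The 18 genes of the 19S particle had a median of 132 rpkm at 28 hr APF and 145 rpkm at 24 hr APF, and the 14 of the core 157 rpkm at 28 hr APF and 188 rpkm at 24 hr APF. Of the ATPases, Rpt3 had 174, 167, 174 and 162 rpkm in replicates 1 to 4 at 28 hr APF, against 192, 197, 192 and 191 rpkm at 24 hr APF, and Rpt6 was next at 169 rpkm at 28 hr APF, within the spread of Rpt3. Rpt5 was lowest of the ATPases, with 129.99, 126, 126 and 120.3 rpkm in replicates 1 to 4 at 28 hr APF, against 135, 138, 139 and 134 rpkm at 24 hr APF, and its libraries lay below those of Rpt3 at both time points. Of the other base subunits, Rpn10 was highest, with 151, 146, 143 and 145 rpkm in replicates 1 to 4 at 28 hr APF, against 159, 163, 160.2 and 152 rpkm at 24 hr APF. Rpn13 was lowest, with 81.9, 76.4, 73.2 and 74.1 rpkm in replicates 1 to 4 at 28 hr APF, against 80.6, 85.1, 83.8 and 82.9 rpkm at 24 hr APF. Rpn10 and Rpn13 are both ubiquitin receptors and stood at opposite ends of this group. In the lid, Rpn6, which bridges lid, base and core, was highest, with 171, 159, 160.3 and 157 rpkm in replicates 1 to 4 at 28 hr APF, against 175, 183, 188 and 183 rpkm at 24 hr APF. Rpn3, a structural lid subunit, was lowest, with 105, 98.3, 96.4 and 95.4 rpkm in replicates 1 to 4 at 28 hr APF, against 117, 113, 116 and 114 rpkm at 24 hr APF. Exon lengths come from a later annotation than the one the reads were counted on, so levels are compared between genes only as far as their lengths hold.

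**Figure D1:**
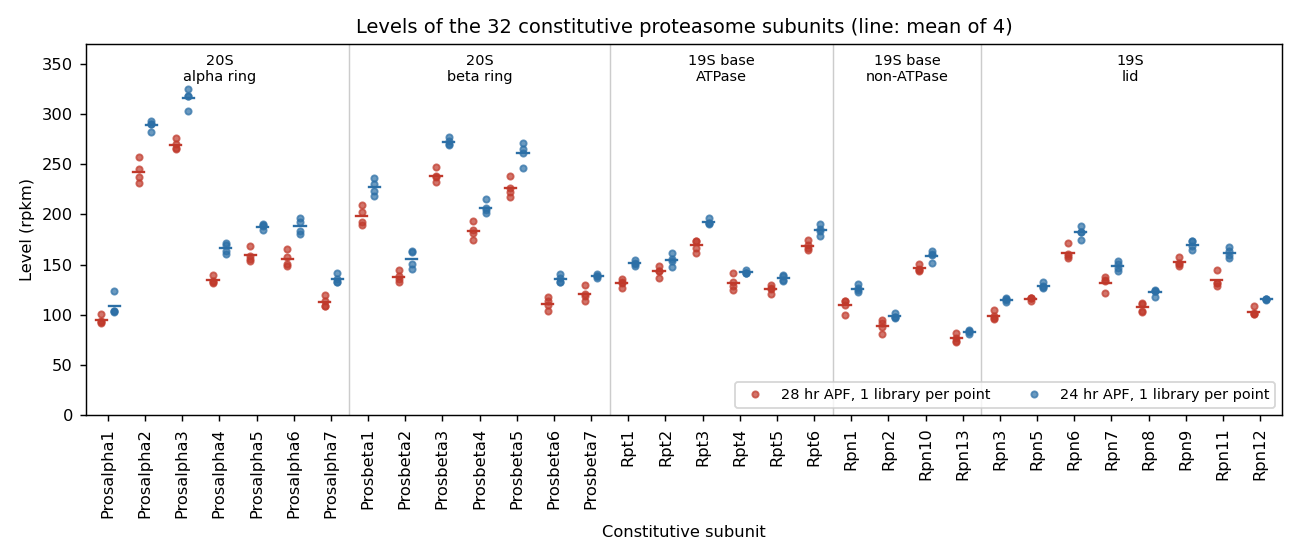
Level in rpkm (vertical axis) of each of the 32 constitutive subunits (horizontal axis, by part of the complex), with 1 point per library, red for 28 hr APF and blue for 24 hr APF, and a line at the mean of 4 libraries. The 28 hr APF points lie below all 24 hr APF points in 29 of the 32 genes, and Prosalpha3 (269.5 rpkm) and Rpn13 (76.4 rpkm) mark the ends of the range at 28 hr APF.

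Between the time points, most of the constitutive subunits fell by a small amount. All 32 had a fitted change below 0, the log2 fold changes lying between -0.28 (Prosalpha4) and -0.08 (Rpt2) with a median of -0.16, that is, between 17.4% and 5.11% lower with a median of 10.4%. Of these, 24 passed an adjusted p-value of 0.05 (edgeR's quasi-likelihood test over all 11232 tested genes, Benjamini-Hochberg adjusted) and none was called higher. Over all tested genes, 17.3% were called lower and 49.4% had a fitted change below 0, and the median log2 fold change was 0.0037. In 29 of the 32, every library at 28 hr APF lay below every library at 24 hr APF, where 21.2% of all tested genes did so. No constitutive subunit was higher at an unadjusted p under 0.05 either, in edgeR or in DESeq2. In bulk tissue, less RNA per cell and fewer cells that hold the RNA cannot be told apart, and neither can age and the handling of the collections. Tested against a fold change of 1.2 in place of 0, none of the 32 was called (0 also at an unadjusted p under 0.05, edgeR's glmTreat).

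As a share of all counted reads, the 32 genes took 0.652%, 0.618%, 0.619% and 0.606% in replicates 1 to 4 at 28 hr APF, against 0.695%, 0.715%, 0.722% and 0.710% at 24 hr APF. The time points did not overlap, and replicate 1 was highest at 28 hr APF and lowest at 24 hr APF.

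The 4 largest falls were in the core. Prosalpha4 (FBgn0004066), on chromosome X of BDGP6 from 16276270 to 16277587, had 139.7, 134, 131 and 133 rpkm in replicates 1 to 4 at 28 hr APF, against 164, 161, 169 and 171 rpkm at 24 hr APF. All libraries at 28 hr APF lay below those at 24 hr APF, and the fall was the largest of the 32 genes (log2 fold change -0.28, standard error 0.04, adjusted p = 0.000316, edgeR's quasi-likelihood test as for all adjusted p-values below). It remained small beside the table as a whole, where 1147 genes called lower had a larger fall. Prosbeta6, whose values are given above, followed (log2 fold change -0.26, standard error 0.04, adjusted p = 0.000726), and its libraries did not overlap between the time points. Prosalpha6 had 166, 150.3, 148 and 157 rpkm in replicates 1 to 4 at 28 hr APF, against 184, 181, 196 and 193 rpkm at 24 hr APF (log2 fold change -0.25, standard error 0.04, adjusted p = 0.0015), and Prosalpha7 had 119, 113, 109 and 109 rpkm in replicates 1 to 4 at 28 hr APF, against 133, 133, 136 and 142 rpkm at 24 hr APF (log2 fold change -0.24, standard error 0.04, adjusted p = 0.0019). For both, the highest library at 28 hr APF stayed below the lowest at 24 hr APF. Prosalpha2 had 257, 237, 231 and 245 rpkm in replicates 1 to 4 at 28 hr APF, against 282, 293, 289.8 and 290.4 rpkm at 24 hr APF (log2 fold change -0.22, standard error 0.04, adjusted p = 0.00091), again without overlap. Prosalpha2 shares 2.61% of its exon bases with Aos1 on the opposite strand, and Aos1 was also lower at 28 hr APF (log2 fold change -0.45, adjusted p = 2.78e-05).

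By ring, 6 of the 7 alpha genes were called lower, with a median log2 fold change of -0.22, and 7 of the 7 beta genes, with a median of -0.16. The genes of the cutting sites had log2 fold changes of -0.16 for Prosbeta1, -0.14 for Prosbeta2 and -0.18 for Prosbeta5 (adjusted p = 0.0112, 0.0342 and 0.00553). Prosalpha1 was the one core gene that did not pass (log2 fold change -0.16, standard error 0.07, adjusted p = 0.0893).

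In the lid, 8 of 8 genes were called lower, where 17.3% of all tested genes were, with a median log2 fold change of -0.14. Rpn11, the deubiquitinating enzyme of the lid, had 145, 129, 132 and 132 rpkm in replicates 1 to 4 at 28 hr APF, against 156, 159.8, 168 and 164 rpkm at 24 hr APF. It had the largest fall of the 19S genes (log2 fold change -0.24, standard error 0.04, adjusted p = 0.00184), with no overlap between the time points. Its structural partner Rpn8 fell by less (log2 fold change -0.16, adjusted p = 0.0217), and Rpn3 lay between them (log2 fold change -0.19, adjusted p = 0.00339). Rpn5 and Rpn7 passed with the smallest margin (adjusted p = 0.0303 and 0.0468). With 1 library left out at a time, Rpn7 was called in 1 of 8 fits, Rpn5 in 3, Rpn8 in 5 and Rpn6 in 7. Rpn7 was also lost with RLE (adjusted p = 0.0556) and upper-quartile factors (adjusted p = 0.0604), and Rpn5 to Rpn9 with a replicate block.

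In the base, 3 of 10 genes were called lower, as were 17.3% of all tested genes. Of its 6 ATPase genes, 2 were called lower, Rpt1 (log2 fold change -0.17, standard error 0.04, adjusted p = 0.00598) and Rpt3 (log2 fold change -0.16, standard error 0.04, adjusted p = 0.0112), and the median of the 6 was -0.09. Rpt2 had 149, 144, 144 and 137 rpkm in replicates 1 to 4 at 28 hr APF, against 148, 161, 155 and 154 rpkm at 24 hr APF. Its highest library at 28 hr APF lay above its lowest at 24 hr APF, and it did not pass the test (log2 fold change -0.08, standard error 0.04, adjusted p = 0.187). Rpt4, Rpt5 and Rpt6 had log2 fold changes of -0.08, -0.09 and -0.10 (adjusted p = 0.191, 0.0882 and 0.0592). Of the 4 other base genes, Rpn1 was called lower (log2 fold change -0.17, standard error 0.05, adjusted p = 0.0199), whereas Rpn2, Rpn10 and Rpn13 had -0.12, -0.09 and -0.09 (adjusted p = 0.0927, 0.0736 and 0.117). Across the core, 13 of 14 genes were called lower with a median of -0.19, and across the 19S particle 11 of 18 with a median of -0.13. Whether the parts of the complex differ from each other was not tested.

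**Figure D2:**
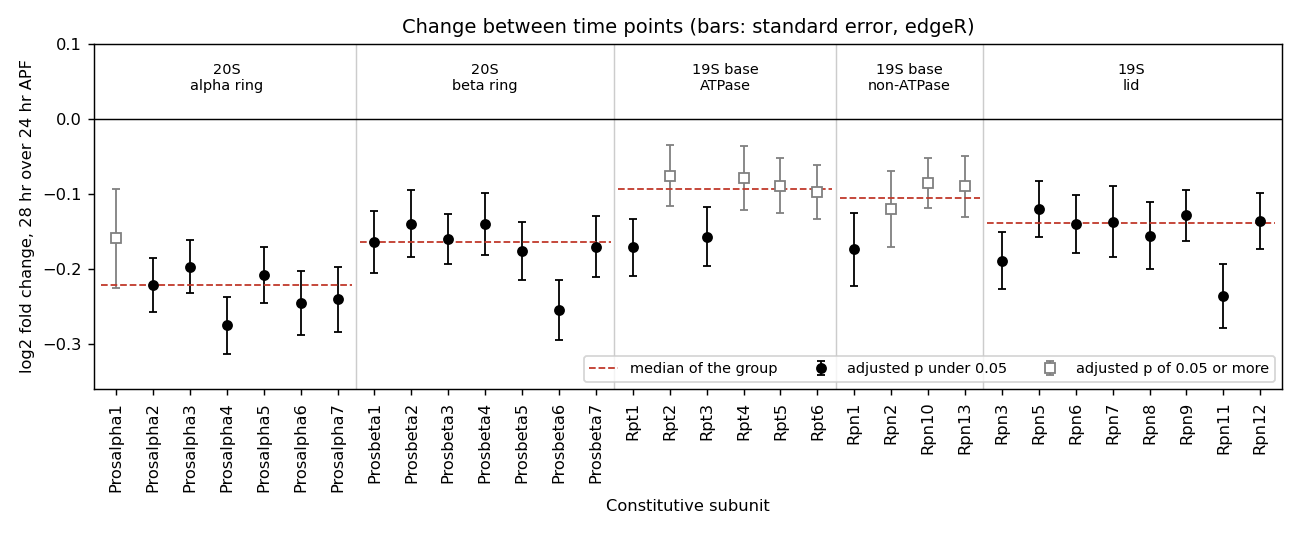
Fitted log2 fold change, 28 hr over 24 hr APF (vertical axis), of each constitutive subunit (horizontal axis), with the standard error as bars, filled circles for an adjusted p under 0.05, open squares for the others, and a dashed line at the median of each part of the complex. All 32 lie below 0, from -0.28 for Prosalpha4 to -0.08 for Rpt2, and the medians run from -0.22 in the alpha ring to -0.09 in the ATPases.

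In 13 of the 32 genes, some exon bases are shared with another gene in the later annotation, at most 15.7% (Rpn9), all of them with a gene on the opposite strand. Whether the counting used strand is not stated, so reads on these bases cannot be assigned. Rpn9 itself was called lower (log2 fold change -0.13, adjusted p = 0.0153).

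Genes that act with the proteasome fell in part. From a list of 25 names, 19 other genes of the ubiquitin-proteasome system were counted. Of these, 9 were called lower, as were 17.3% of all tested genes, and none higher, with a median log2 fold change of -0.13. At an unadjusted p under 0.05, 10 were lower and 1 (Ubi-p63E) higher in edgeR's test, and DESeq2 called 1 higher. In 12 of the 19, all libraries at 28 hr APF lay below those at 24 hr APF, as in 21.2% of all tested genes. The largest fall was in Uch-L5, a deubiquitinating enzyme that binds the 19S particle, with 96.5, 86.4, 87.1 and 92.7 rpkm in replicates 1 to 4 at 28 hr APF, against 112, 119.7, 120.3 and 124 rpkm at 24 hr APF (log2 fold change -0.36, standard error 0.05, adjusted p = 0.000218). REG, the Drosophila PA28 activator that caps the core in place of the 19S particle, had 75.2, 75.0, 68.0 and 73.0 rpkm in replicates 1 to 4 at 28 hr APF, against 93.5, 94.4, 94.2 and 95.7 rpkm at 24 hr APF (log2 fold change -0.34, standard error 0.04, adjusted p = 6.84e-05). In both genes the time points were well separated, and the falls exceeded that of every constitutive subunit. The shuttle factor rngo, which carries ubiquitinated proteins to the proteasome, had 51.6, 50.5, 49.6 and 51.2 rpkm in replicates 1 to 4 at 28 hr APF, against 62.2, 63.8, 65.0 and 64.3 rpkm at 24 hr APF (log2 fold change -0.30, standard error 0.03, adjusted p = 7.96e-05), again without overlap.

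Usp14, another deubiquitinating enzyme of the 19S particle, and Sem1, the smallest lid subunit, had log2 fold changes of -0.20 and -0.18 (adjusted p = 0.00735 and 0.0127), in the range of the constitutive subunits. The ubiquitin-activating enzyme Uba1, the TER94 cofactor p47, the shuttle factor Ubqn and the ubiquitin fusion gene RpS27A were also called lower (-0.19, -0.20, -0.14 and -0.13). The other 10 genes did not pass. RpL40, a ubiquitin fusion gene, and CG8858 had -0.13 and -0.10 (adjusted p = 0.081 and 0.14), and for both, as for Pomp, all libraries at 28 hr APF lay below those at 24 hr APF. Pomp, the chaperone of core assembly, had -0.07 (adjusted p = 0.189), the shuttle factor Rad23 -0.02 (adjusted p = 0.741) and the proteasome regulator PI31 0.01 (adjusted p = 0.941). Of the exon bases of Pomp, 40.0% are shared with vari on the opposite strand. The polyubiquitin gene Ubi-p63E had 247, 264, 218 and 219.7 rpkm in replicates 1 to 4 at 28 hr APF, against 199, 231, 232 and 171 rpkm at 24 hr APF. Its time points overlapped and it did not pass (log2 fold change 0.22, standard error 0.09, adjusted p = 0.09). The transcription factor cnc, whose mammalian relative NFE2L1 drives proteasome genes, had 6.33 ± 0.272 rpkm at 28 hr APF and 6.19 ± 0.109 rpkm at 24 hr APF (SD, n = 4 each) and did not pass (log2 fold change 0.06, standard error 0.05, adjusted p = 0.36).

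The 16 paralogs had far lower levels, with 1 exception. Only 3 had a mean above 1 rpkm at a time point, Prosalpha1R, Rpt3R and Rpn13R, so 35 of the 48 genes were above this level. Just below it was Prosalpha4T1 (mean 0.985 rpkm at 28 hr APF). In all, 5 paralogs had enough reads for the test, and Prosalpha4T1 alone was called, higher at 28 hr APF, where 15.6% of all tested genes were called higher. The other 11 had means of at most 0.194 rpkm.

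The exception was Prosalpha1R (FBgn0050382), which was read as strongly as the constitutive Prosalpha1 (FBgn0263121). Both lie on arm 2R of BDGP6 on the minus strand, Prosalpha1 from 7827303 to 7828678 and Prosalpha1R from 7830413 to 7831771, 1734 bases apart, and their exons are 969 and 952 bases long. Prosalpha1R had 96.1, 89.6, 107 and 88.4 rpkm in replicates 1 to 4 at 28 hr APF, against 103, 126, 106 and 104 rpkm at 24 hr APF. Prosalpha1 had 92.8, 92.2, 100.4 and 93.9 rpkm in replicates 1 to 4 at 28 hr APF, against 103, 123, 103 and 104 rpkm at 24 hr APF. The counts of Prosalpha1R were between 0.925 and 1.04 times those of Prosalpha1 in each of the 8 libraries. In rpkm, replicate 2 at 24 hr APF was highest for both genes, and replicate 3 was highest for both at 28 hr APF.

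The symbol marks Prosalpha1R as a copy of Prosalpha1, no sequence was compared here, and how reads with several alignments were counted is not stated, so the levels of Prosalpha1 and Prosalpha1R are uncertain. A read counted on both genes would make the gene it did not come from too high. A read divided between them would also make its gene of origin too low. From which of the genes the reads came was not tested. Against the other 13 genes of the core, Prosalpha1 lay between 0.552 and 0.645 times their median at 28 hr APF and between 0.525 and 0.670 times at 24 hr APF. The sum of both genes was between 182 and 207 rpkm at 28 hr APF, against between 206 and 249 rpkm at 24 hr APF, where the median of the other 13 was between 154 and 168 rpkm and between 184 and 196 rpkm at the same times. Neither gene passed the test (Prosalpha1R with a log2 fold change -0.17, standard error 0.08, adjusted p = 0.143), although Prosalpha1R passed without replicate 3 at 28 hr APF (log2 fold change -0.25, adjusted p = 0.0322) and Prosalpha1 too (-0.21, adjusted p = 0.0435). phr overlaps the end of Prosalpha1 by a few bases on the opposite strand. Its highest counts were in the libraries where Prosalpha1 and Prosalpha1R were highest in rpkm, though not all in raw counts. It had 834 counts in replicate 3 at 28 hr APF (287 to 405 in the others) and 861 in replicate 2 at 24 hr APF (546 to 725 in the others).

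**Figure D3:**
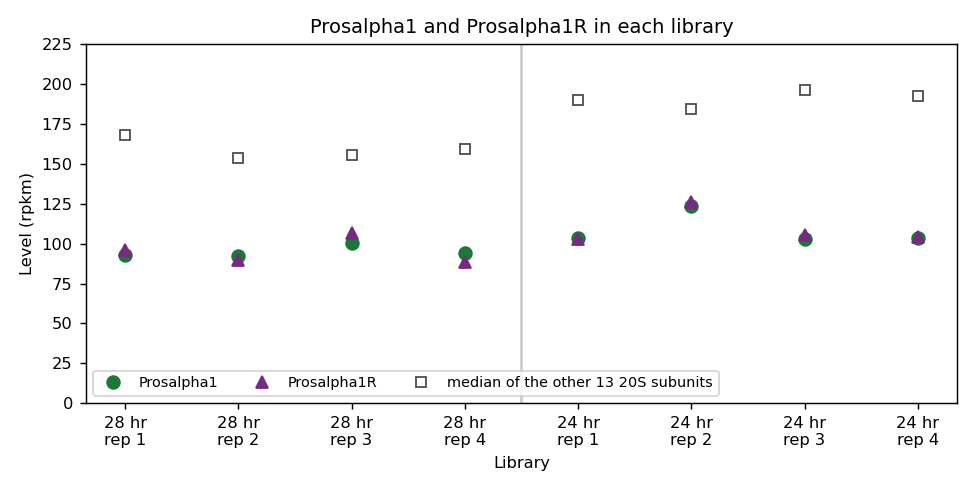
Level in rpkm (vertical axis) of Prosalpha1 (circles), Prosalpha1R (triangles) and the median of the other 13 genes of the 20S core (open squares) in each library (horizontal axis, 28 hr APF left, 24 hr APF right). The symbols of the pair nearly coincide, between 88.4 and 126 rpkm, below the squares in every library.

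Of the 4 other paralogs that could be tested, Prosalpha4T1 (FBgn0265606), a testis copy of Prosalpha4 with 1 exon, lies on arm 3R of BDGP6 from 20748184 to 20749074, within an intron of CG42322 on the opposite strand. It had 27, 25, 23 and 34 counts in replicates 1 to 4 at 28 hr APF, against 22, 11, 11 and 14 counts at 24 hr APF. In rpkm, all libraries at 28 hr APF (0.860 to 1.13) lay above those at 24 hr APF (0.439 to 0.777), and the gene was called higher (log2 fold change 0.89, standard error 0.27, adjusted p = 0.0303). The call was lost in DESeq2 (adjusted p = 0.0536) and in 7 of 8 fits with a single library left out, being kept only without replicate 1 at 24 hr APF. CG42322 itself was higher at 28 hr APF, with 940 to 1406 counts per library against 534 to 799 at 24 hr APF (log2 fold change 0.73, adjusted p = 0.000129). Its part in the reads on Prosalpha4T1 was not tested.

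Rpn13R, a copy of the ubiquitin receptor gene Rpn13, lies on chromosome X of BDGP6 from 5131898 to 5132985, within introns of rg and CG15465 on the same strand. It had 45, 46, 53 and 51 counts in replicates 1 to 4 at 28 hr APF, against 37, 20, 36 and 38 counts at 24 hr APF. The time points did not overlap in rpkm (1.32 to 1.62 at 28 hr APF, 0.749 to 1.195 at 24 hr APF), as in 13.2% of all tested genes for this direction, but the difference did not pass (log2 fold change 0.57, standard error 0.21, adjusted p = 0.0658). rg was higher at 28 hr APF by a log2 fold change of 0.41 (adjusted p = 0.00211), and its part in the reads on Rpn13R was not tested.

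Rpt3R, a copy of the ATPase gene Rpt3, had 99, 92, 74 and 114 counts in replicates 1 to 4 at 28 hr APF, against 121, 79, 93 and 164 counts at 24 hr APF, or 2.10 ± 0.277 rpkm at 28 hr APF and 2.58 ± 0.422 rpkm at 24 hr APF (SD, n = 4 each). The time points overlapped and the difference did not pass (log2 fold change -0.27, standard error 0.17, adjusted p = 0.246). Rpt3R shares 1.38% of its exon bases with Alg12 on the opposite strand. At 28 hr APF the constitutive gene Rpt3 was at 169 rpkm. Rpt6R had between 2 and 16 counts per library at 28 hr APF and between 9 and 25 at 24 hr APF, with overlap (log2 fold change -0.67, standard error 0.54, adjusted p = 0.377).

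**Figure D4:**
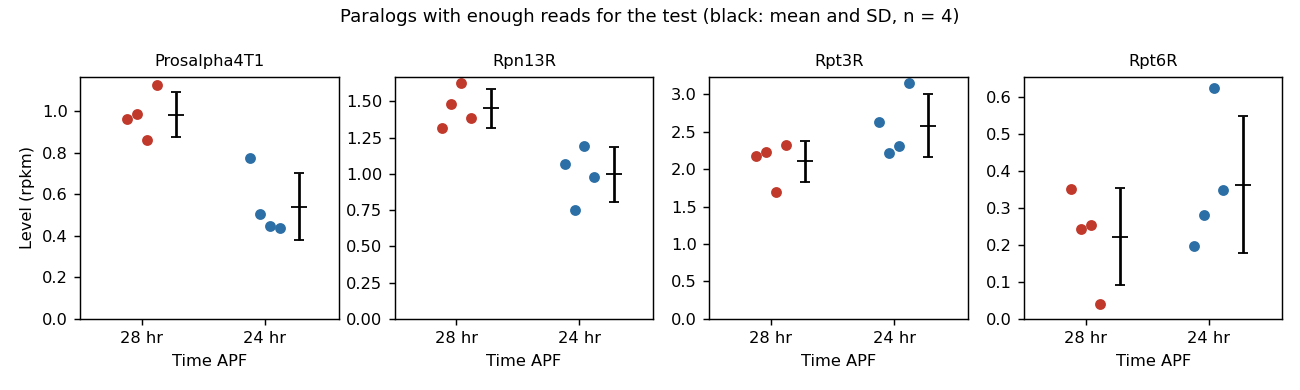
Level in rpkm (vertical axes, each starting at 0 with its own scale) of 4 paralogs at 28 hr APF (red, left) and 24 hr APF (blue, right), with 1 point per library and the mean and SD of 4 in black. The time points are separate for Prosalpha4T1 and Rpn13R and overlap for Rpt3R and Rpt6R, and the highest point of all is a Rpt3R library at 3.16 rpkm.

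The 11 remaining paralogs were read only sparsely. All 11 had at least 1 count at 28 hr APF, and 6 were at 0 in all 4 libraries at 24 hr APF. Summed over the 11 genes, there were 45, 27, 51 and 14 counts in replicates 1 to 4 at 28 hr APF, against 13, 1, 8 and 12 counts at 24 hr APF. Of the 34 counts at 24 hr APF, 25 were on Prosbeta2R2, which had 26 at 28 hr APF. At this depth, 1 read on a gene as short as Prosbeta4R1 corresponds to 0.0491 rpkm in the shallowest library.

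Prosbeta5R1, a copy of the gene of the chymotrypsin-like subunit Prosbeta5, had 7, 3, 15 and 1 counts in replicates 1 to 4 at 28 hr APF, against 0, 0, 0 and 1 counts at 24 hr APF, a ratio of 25.2 per counted read with a 95% interval from 4.14 to 1032 (exact binomial, counting error only). Replicates 1 to 3 at 28 hr APF lay above all libraries at 24 hr APF, whereas replicate 4 at both time points held a single read. Prosbeta4R2 had 5, 7, 8 and 0 counts in replicates 1 to 4 at 28 hr APF, against 0, 0, 0 and 0 counts at 24 hr APF. With 3 counts over the group put in place of 0 at 24 hr APF, the ratio per counted read was 6.45. Such a ratio leaves out the counting error at 28 hr APF, so it is not a lower limit. Of the exon bases of Prosbeta4R2, 4.19% are shared with Or23a on the same strand, which had 2 counts in all, both in replicate 3 at 28 hr APF. Its neighbour Prosbeta4R1, 1467 bases away on arm 2L, had 1 count in each library at 28 hr APF and 0 in each at 24 hr APF. Put the same way, the ratio was 4.84 for Rpn12R (15 counts against 0) and 2.26 for Prosbeta2R1 (7 against 0). For Prosalpha6T (11 against 0), which is needed for sperm formation, it was 3.55. Without replicate 3 at 28 hr APF, this ratio was 1.70 for Rpn12R, 2.56 for Prosalpha6T and 5.11 for Prosbeta4R2. Prosbeta5R1 was then left with 11 counts. Prosbeta2R1 (1, 2, 4 and 0 counts in replicates 1 to 4) was left with 3 counts, for which no ratio is given. Rpn12R had reads in only 2 of the libraries at 28 hr APF, 4 in replicate 1 and 11 in replicate 3. With no filter on low counts, the edgeR test called Prosbeta5R1 and Prosbeta4R2 higher at 28 hr APF (adjusted p = 0.0208 and 0.0330), and none of the other 9. In that fit, 1764 of all 15794 genes were called higher.

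For the others, the counting intervals were wide. Prosalpha4T2 had 8 counts at 28 hr APF and 1 at 24 hr APF (ratio 7.75, 95% interval 1.04 to 344), Rpt4R 9 and 3 (ratio 2.90, interval 0.725 to 16.7), Prosbeta5R2 9 and 4 (ratio 2.18, interval 0.608 to 9.68) and Prosbeta2R2 26 and 25 (ratio 1.01, interval 0.559 to 1.82). Prosalpha3T had 2 counts at 28 hr APF and 0 at 24 hr APF. Without replicate 3 at 28 hr APF, Prosalpha4T2 had 3 counts at 28 hr APF. None of these 5 genes passed the edgeR test with no filter (lowest adjusted p = 0.235, Prosalpha4T2).

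A list of testis genes was set beside the sparse paralogs. Of 33 listed testis genes, 31 were in the table, and their sum was 47.8, 39.5, 76.9 and 32.6 CPM in replicates 1 to 4 at 28 hr APF, against 33.6, 30.6, 34.0 and 33.7 CPM at 24 hr APF. Most counts of this sum at 24 hr APF (1068, 750, 941 and 1206 in replicates 1 to 4) lay on mia and boly. mia had 382, 309, 258 and 351 counts in replicates 1 to 4 at 28 hr APF, against 539, 398, 490 and 626 counts at 24 hr APF. The level of the sum at 24 hr APF was thus largely that of mia and boly. At 28 hr APF, the libraries had the same order, replicates 3, 1, 2 and 4 from high to low, in the testis list and in the sum of the 11 paralogs (1.70, 1.43, 0.949 and 0.414 CPM). The orders differed at 24 hr APF, with replicates 3, 4, 1 and 2 in the testis list. In the paralogs it was replicates 1, 4, 3 and 2 (0.409, 0.335, 0.289 and 0.0408 CPM). Single paralogs departed from the order of their sum at 28 hr APF. In replicates 1 to 4 at that time, Prosbeta2R2 had 14, 5, 0 and 7 counts, Rpt4R 5, 2, 0 and 2, and Prosbeta5R2 4, 4, 1 and 0. The 10 sparse paralogs without Prosbeta2R2 had 31, 22, 51 and 7 counts. Of the 9 testis genes with enough reads for the test, 6 were called higher and 1, mia, lower, where 15.6% of all tested genes were called higher. Genes such as S-Lap4 (71, 18, 182 and 12 counts in replicates 1 to 4 at 28 hr APF, against 4, 0, 0 and 4 counts at 24 hr APF) reached the test only through their reads at 28 hr APF, so this count does not describe the list as a whole. Not every gene of the list had the library order of its sum, since boly had 227, 302, 322 and 429 counts in replicates 1 to 4 at 28 hr APF, against 263, 158, 170 and 305 counts at 24 hr APF. Nor did every gene rise. topi had 6, 4, 5 and 9 counts in replicates 1 to 4 at 28 hr APF, against 13, 7, 10 and 26 at 24 hr APF. It had too few reads for the test, and in rpkm all its libraries at 28 hr APF lay below those at 24 hr APF. The tested genes sa and fzo did not pass (log2 fold change -0.11 and 0.08, adjusted p = 0.817 and 0.879). The sperm chromatin gene ProtA had 4, 1, 15 and 1 counts in replicates 1 to 4 at 28 hr APF, against 0, 0, 0 and 0 counts at 24 hr APF, and the sperm tail gene Mst98Ca had 27, 15, 54 and 1 counts in replicates 1 to 4 at 28 hr APF, against 0, 0, 0 and 0 counts at 24 hr APF. loopin-1, a sperm aminopeptidase gene, had 73, 28, 183 and 15 counts in replicates 1 to 4 at 28 hr APF, against 12, 2, 1 and 4 counts at 24 hr APF. Like S-Lap4, loopin-1 reached the test only through its reads at 28 hr APF, so no test is given for it. At 24 hr APF, ProtA, Mst98Ca, schuy and hale were at 0 in all libraries, and at 28 hr APF this was so only for aly. Of the list, 6 genes had at least 10 counts in each library at 24 hr APF. Whether these reads come from the testis was not tested, so the list may not be exclusive to it. Whether the sparse paralog reads come from germline cells in the dissected tissue was not tested.

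The counts on the 11 paralogs without replicate 3 at 28 hr APF, the library with the highest testis sum, were 86 in 3 libraries at 28 hr APF, against 34 in 4 libraries at 24 hr APF. The calls on the constitutive subunits were read without these libraries too. Without replicate 3 at 28 hr APF, 25 of the 32 were called lower, and with replicates 1 and 3 at 28 hr APF both left out, an alternative chosen after seeing the data, 26 were called lower and all 32 were still below 0. Of all tested genes, 15.5% and 12.4% were called lower in these fits.

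**Figure D5:**
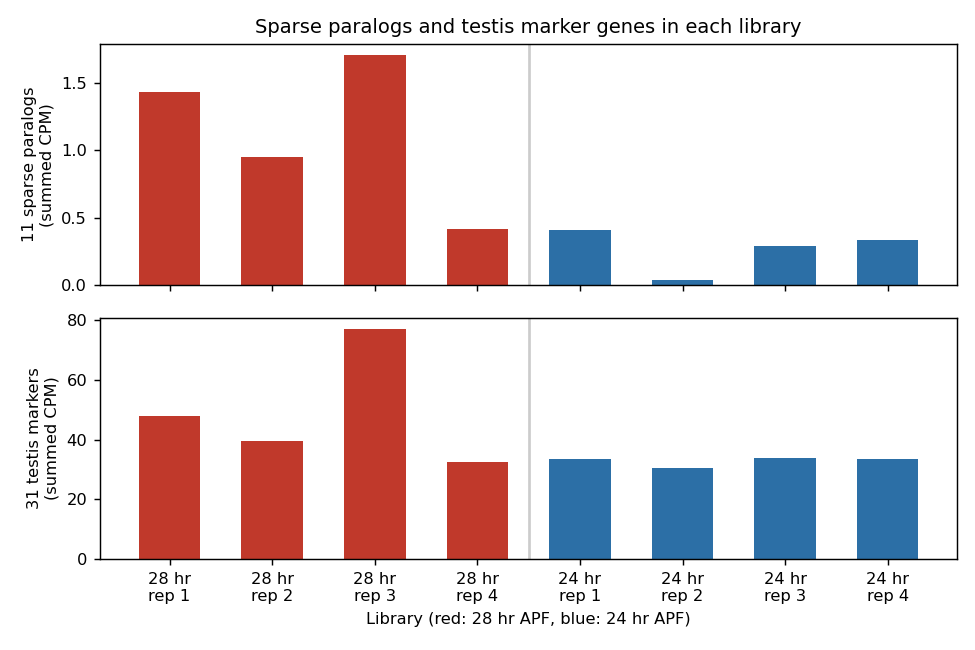
Summed CPM (vertical axes, from 0) of the 11 sparsely read paralogs (top) and of the 31 testis genes (bottom) in each library (horizontal axis, red for 28 hr APF at left, blue for 24 hr APF at right). Replicate 3 at 28 hr APF is highest in both panels (1.70 and 76.9 CPM), and replicate 4 at 28 hr APF lies near the 24 hr APF libraries in both. At 24 hr APF and in replicate 4 at 28 hr APF, most counts of the bottom panel are on mia and boly.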

How the data were processed

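RNA-seq counts from 8 libraries, 4 from 28 hr APF and 4 from 24 hr APF, were analysed. Per the methods and the labels, the authors aligned poly-A reads to dm3 with TopHat2 2.0.13, counted reads in unioned exons of FlyBase genes with bedtools, and deposited raw counts for 16845 genes without normalization. Handling of strand and of reads with several alignments is not given in the sources used here. The counts per library bound the precision, and intervals on low counts cover counting error only.

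Symbols matched 16431 identifiers. 1 gene that shares exon bases with a member is not reported here. Symbols, exon lengths and coordinates came from Ensembl's BDGP6 annotation, which is not the build of the alignment, and no coordinate was converted. The rpkm uses the total count, so it is not TMM-scaled. Counts were tested with edgeR 4.0.16 in R 4.3.3 (TMM, filterByExpr with a minimum count of 10, quasi-likelihood test, Benjamini-Hochberg over all tested genes, threshold 0.05). Standard errors were obtained from the fold change and the root of its F statistic. TMM factors lay between 0.964 and 1.03. No sequence was read. The test was checked on simulated data. Every pair of libraries of a time point differed by more than sampling noise (chi-square at least 7.36 times its degrees of freedom).

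Alternatives covered normalization, DESeq2 1.42.0, the filter, a replicate block, a minimum fold change of 1.2, gene length, library size and leaving out each library. Members and gene lists (proteasome partners, ubiquitin and shuttle genes, testis, fat body, hemocyte and muscle markers) were chosen with earlier results of these data known. Every member may be named. Values per library are given for the largest called changes without overlap, the ends of each part of the complex and the paralogs with most reads. From the other lists, called genes were named, and Pomp, Rad23, PI31, RpL40, CG8858, cnc, Ubi-p63E, Lsp2 and the testis genes were chosen after their values were seen.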

Additional observations from a re-analysis of the deposited data

Results flagged for a closer look

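Among 80 sets of 4 libraries of 1 gene at 1 time point with at least 10 counts, 6 held a library whose gap to the nearest other exceeded Dixon's 95% critical value as a share of the range, where chance gives about 1 in 20, that is 4. At 28 hr APF, replicate 1 was highest for Rpn12 (108 rpkm, the others between 100.5 and 101 rpkm), and replicate 4 was lowest for Rpn5 (114 rpkm, the others near 117 rpkm). At 24 hr APF, replicate 2 was highest for Prosalpha1 (123 rpkm, the others between 103 and 104 rpkm), for Prosalpha1R (126 rpkm, the others between 103 and 106 rpkm) and for Rpt3 (197 rpkm, the others between 191 and 192 rpkm), and replicate 1 was lowest for Rpn8 (118 rpkm, the others between 123 and 124 rpkm). The values of Prosalpha1 and Prosalpha1R may rest on the same reads and are not independent.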

How the results depend on the processing

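All 32 constitutive subunits had a fitted change below 0 in each of the 18 fits. The number called lower was 24, and it ranged from 17 to 29 over the other settings except the test against a fold change of 1.2, which asks for a larger change and gave 0 constitutive subunits, 0 of the other ubiquitin-proteasome genes, 0 paralogs and 1348 of all genes. Leaving out 1 library at a time gave 19 to 25 constitutive subunits, 3121 to 3435 of all genes, 7 to 10 of the other ubiquitin-proteasome genes and 0 to 1 paralogs. In these 8 fits, 17 constitutive subunits were called every time, 10 in some and 5 in none. Prosbeta2, Rpn5 and Rpn7 were called in 2, 3 and 1 of them, Prosbeta4 and Rpn8 in 5, and Rpn1 and Rpn6 in 7.

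The labels do not say whether the replicate numbers pair the pupae or mark a batch. Deviations of same-numbered libraries correlated by -0.16, 0.16, -0.22 and 0.14, against -0.20 to 0.21 for libraries of unlike number. Of the 8 libraries, 2 correlated best with their own number. These correlations show no pairing but cannot exclude a shared batch. With the replicate block, 17 constitutive subunits (all lower, without Prosbeta2, Prosbeta4 and Rpn5 to Rpn9), 0 paralogs, 8 of the other ubiquitin-proteasome genes (7 lower and 1 higher) and 3175 of all genes were called. With total counts in place of TMM, 29 constitutive subunits were called lower, as were 20.5% of all tested genes, and the median of all genes was -0.03 (log2). DESeq2 called 25 constitutive subunits, all lower, as were 17.5% of all tested genes, and 0 paralogs. No filter on low counts called 2 paralogs (Prosbeta4R2 and Prosbeta5R1) and not Prosalpha4T1 (adjusted p = 0.0644). The cause of these shifts was not tested. Among alternatives chosen after seeing the data, Prosalpha1 and Prosalpha1R counted as 1 gene left 24 subunits called lower and that gene not called, and without replicates 1 and 3 at 28 hr APF the called paralog was Prosalpha1R and not Prosalpha4T1 (adjusted p = 0.101). The median level of the constitutive subunits moved by less than the spread between libraries, and 35 or 36 genes lay above 1 rpkm, under each alternative.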
